A study of Mus musculus with 8 samples.

Results

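The tumor necrosis factor (TNF) ligand and receptor superfamilies were examined in ventricular mRNA of tumor-bearing and PBS-injected mice. Members were the protein-coding genes of the deposited count table whose symbol is Tnfsf or Tnfrsf followed by a number, together with Tnf, Lta, Ltb, Ltbr, Fas, Fasl, Cd40, Cd27, Eda2r and Ngfr. This rule gave 42 members among the 43346 genes listed, 16 of them ligands and 26 of them receptors. The rule itself uses no measured value.

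Both groups were male C57BL/6 mice injected under the skin of the left flank at 7 weeks of age, 4 of them with 1000000 LLC1 cells in PBS and 4 with PBS alone. LLC1 is a mouse Lewis lung carcinoma line, and it is used as a model of cancer cachexia, the wasting that accompanies some tumors. Ventricular tissue was taken 14 days after injection, so each library mixes cardiomyocytes with vessel, connective tissue and blood-derived cells, and the tumor itself was not sampled. The model is limited to 1 tumor line, 1 sex and 1 time point, and nothing in the labels says whether the mice shared litters or cages. Mice are named by injection and replicate code, and values in every mouse are given in the order 1-2, 1-3, 1-5 and 2-2 for LLC1 and 1-1, 1-3, 2-1 and 2-5 for PBS.

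TNF superfamily ligands are mostly membrane-bound trimers that can be shed as soluble cytokines, and they act by drawing receptor chains together. Receptors with a death domain in their cytoplasmic tail can recruit adaptors that activate caspases or the necroptosis machinery, while the other signalling receptors bind TRAF adaptors and lead mainly to NF-kappaB and stress kinases. Decoy receptors bind ligand without passing on a complete signal. In the heart, TNF is best known as a cytokine that depresses contraction, and the TWEAK receptor Tnfrsf12a as a gene induced by injury and mechanical load.

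Libraries held between 12480706 and 19747596 counts, so that a level of 1 CPM (counts per 1000000, after TMM scaling) stood for 11.7 to 19.9 counts. LLC1 was tested against PBS by the quasi-likelihood method of edgeR over the 16111 genes that passed its filter on low counts, and FDR is the Benjamini-Hochberg adjusted p over all of them. A gene was called when its FDR was under 0.05. The ventricle carried its defining markers, with the 7 cardiomyocyte markers summing to between 92519 and 99292 CPM in LLC1 and between 83632 and 86414 CPM in PBS mice, and Myh6 was the 1 of the 7 called (higher in LLC1, with log2 fold changes of -0.05 for Actc1 and -0.17 for Ryr2). The groups were also apart for summed neutrophil markers, from 4.18 to 7.11 CPM in LLC1 and from 1.77 to 4.07 CPM in PBS mice. S100a8 and S100a9 were called higher in LLC1, while Csf3r (edgeR FDR 0.389) and Mmp9 (FDR 0.587) overlapped without a call. Retnlg and Ly6g were under the filter, with 12 and 1 counts over all mice. Sums for smooth muscle cells and pericytes were apart too, from 784 to 842 CPM in LLC1 and from 902 to 1064 CPM in PBS. None of these 6 markers was called or lay apart by itself, and Acta2 had the lowest edgeR FDR of 0.0595. The largest part of the sum was Rgs5, at a mean of 576 against 664 CPM, while log2 fold changes were -0.03 for Myh11 and -0.003 for Tagln. Sums overlapped for fibroblasts (729 to 807 CPM in LLC1 and 782 to 982 CPM in PBS, with 3 of 6 markers called lower), erythroid cells (1428 to 5180 and 1556 to 3097 CPM) and NK cells (0.201 to 0.492 and 0.343 to 0.561 CPM). Their part in the results below was not tested. P-values measure the spread between these mice.

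Of the 42 members, 23 were tested and 19 stayed under the filter. Cd40, Eda2r and the ligand gene Tnfsf10 fell in tumor-bearing mice, and no member rose by edgeR, DESeq2 or limma-voom. Fas was the single member above 0 with an unadjusted edgeR p under 0.05. The 3 calls are 13.0% of the members tested, against 8.73% of all genes tested, and all were lower, a direction called for 4.61% of all genes. Calls in the other direction made up 4.12% of all genes. Log2 fold changes were below 0 for 19 of the 23 tested members and for 8387 of all 16111 genes tested, with medians of -0.21 and -0.01. The LLC1 and PBS values did not overlap for 5 members (21.7%), compared with 17.2% of all genes tested: Cd40, Eda2r, Tnfrsf1b and Tnfrsf22 lay lower, and Fas lay higher. With scaling to library totals in place of TMM, the same 3 members were called, while the share of all calls that were lower was 77.9% in place of 52.8%. In bulk tissue, fewer cells of a type and less RNA per cell cannot be told apart.

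**Figure D1:**
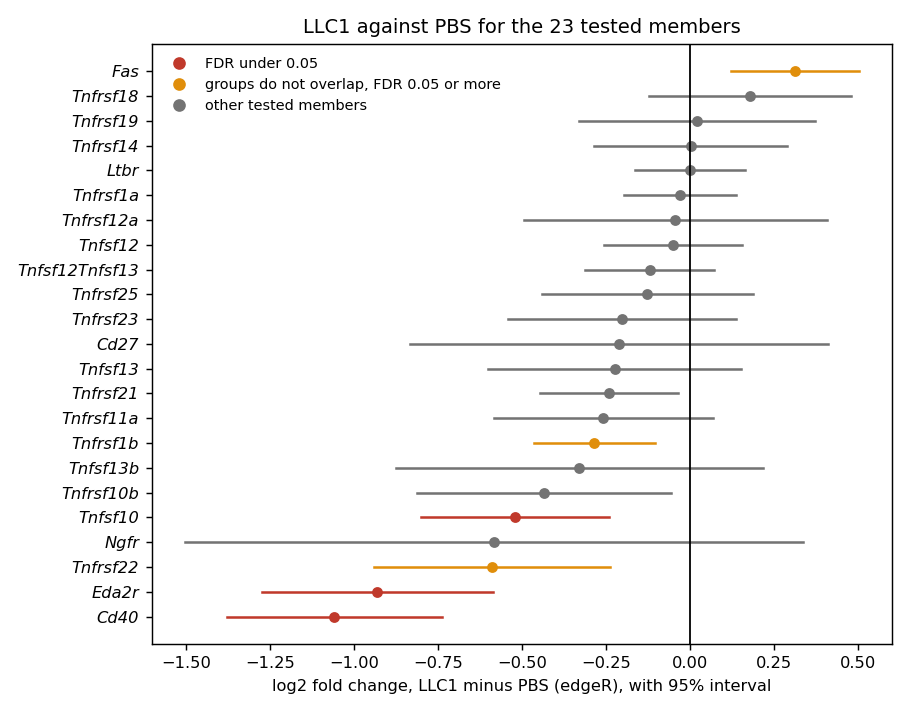
Log2 fold change (LLC1 minus PBS, edgeR) on the horizontal axis for each of the 23 tested members, with the 95% interval as a line. Cd40 at -1.06, Eda2r at -0.93 and Tnfsf10 at -0.52 (red) have an FDR under 0.05; the members in orange have groups that do not overlap without passing that threshold, among them Fas at 0.31 on the right.

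Levels between genes were compared as CPM per kilobase of the deposited gene length. Receptor mRNAs stood above ligand mRNAs at the top of that scale. The mean level over all mice was 49.4 CPM per kilobase for Tnfrsf12a, 15.5 for Tnfrsf1a, 12.7 for Ltbr and 10.1 for Fas. Tnfsf12, which encodes the ligand TWEAK, was the most abundant ligand mRNA per length at 9.70 CPM per kilobase, although by CPM without length it stood at 14.7, below Tnfsf10 at 16.0, and its receptor Tnfrsf12a was the most abundant mRNA of the whole superfamily. The lowest of the tested members were Cd27 at 0.309 and Ngfr at 0.167 CPM per kilobase.

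**Figure D2:**
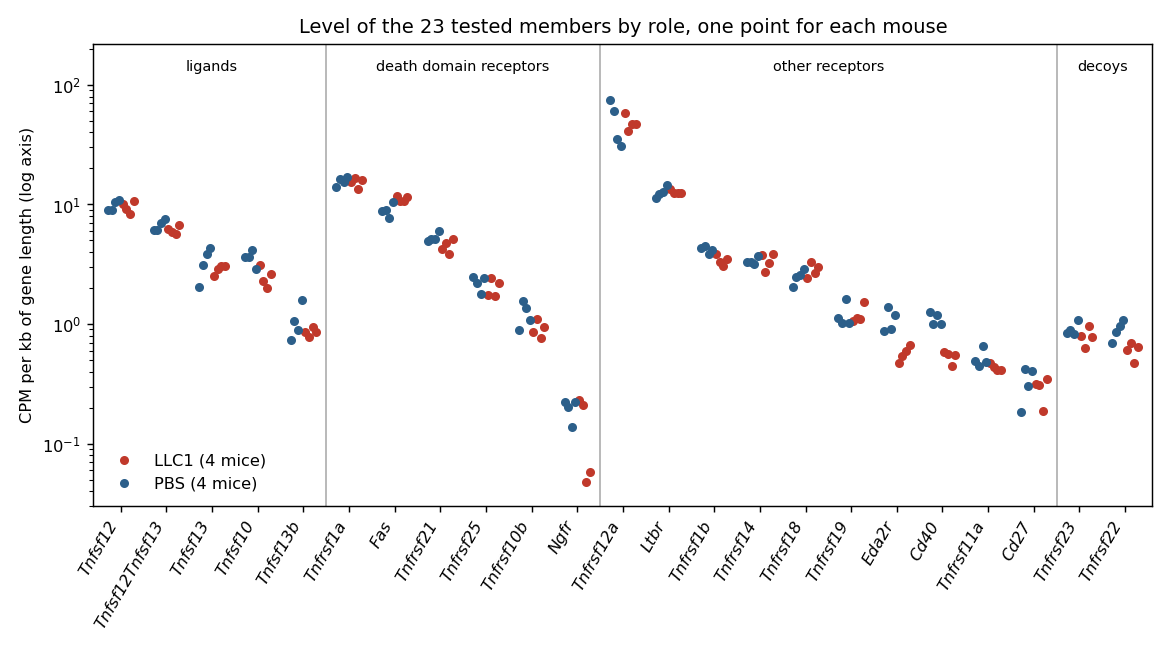
Level of each tested member in CPM per kilobase of gene length (log axis), grouped by role, with 1 point for each of the 4 PBS mice (blue) and 4 LLC1 mice (red). Tnfrsf12a stands highest at a mean of 49.4, and the red points of Cd40 and Eda2r lie below all of their blue points.

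Among the ligands, 5 of 16 genes were tested, and all 5 log2 fold changes were below 0, as were 8387 of all 16111 genes tested. Tnfsf12 and Tnfsf13 share exon bases with Tnfsf12Tnfsf13, so these do not count as separate genes. Tnfsf10 encodes TRAIL, a ligand that triggers apoptosis in many transformed cells through death receptors. Tnfsf10 (chr3:27317028-27342427 in mm10) was at 16.4, 11.98, 10.6 and 13.7 CPM in LLC1 mice and at 19.2, 19.3, 21.8 and 15.2 CPM in PBS mice. The groups overlapped, because LLC1 1-2 lay above PBS 2-5. The mean was 13.2 ± 2.52 CPM (SD, n = 4) against 18.9 ± 2.75 CPM (SD, n = 4), and Tnfsf10 fell by 0.52 on the log2 scale (SE 0.14, edgeR FDR 0.0427). The call was lost in 5 of the 8 fits with 1 mouse left out. The FDR was 0.117 without LLC1 1-3, 0.114 without LLC1 1-5, 0.0777 without LLC1 2-2, 0.106 without PBS 1-3 and 0.107 without PBS 2-1. The log2 fold change in these 5 fits ran from -0.55 to -0.43. The share of all genes tested that was called fell as well, from 8.73% to 3.88%, 4.36%, 5.11%, 3.32% and 5.88% in the same order. The bases upstream of the gene are shown because it is the ligand gene that was called, and cover chr3:27316827-27317027 on the plus strand of GRCm38.p6 (RefSeq).
Tnfsf10: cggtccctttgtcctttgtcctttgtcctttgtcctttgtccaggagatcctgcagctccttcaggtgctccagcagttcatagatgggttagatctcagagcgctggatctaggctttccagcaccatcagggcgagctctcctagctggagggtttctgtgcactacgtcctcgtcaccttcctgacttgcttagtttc

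Tnfsf12 was similar in both groups, at 15.1, 14.0, 12.6 and 16.2 CPM in LLC1 mice and 13.6, 13.7, 15.8 and 16.6 CPM in PBS mice. Its log2 fold change was -0.05, with a 95% interval from -0.26 to 0.15 (edgeR FDR 0.802). The neighbouring gene Tnfsf13 encodes APRIL, a survival factor for B cells and plasma cells, and the table lists a read-through of both genes as Tnfsf12Tnfsf13. The annotation places 48.3% of the exon bases of Tnfsf12 and 60.05% of those of Tnfsf13 inside that read-through on the same strand, so counts of the 3 genes cannot be taken as separate. Log2 fold changes were -0.22 (FDR 0.499) for Tnfsf13 and -0.12 (FDR 0.476) for the read-through. Tnfsf13b, which encodes the B cell survival factor BAFF, was at 0.7996 ± 0.0618 CPM in LLC1 and 0.992 ± 0.344 CPM in PBS mice (SD, n = 4), with a log2 fold change of -0.33 (SE 0.28, FDR 0.492). PBS 2-5, at 1.48 CPM, was the highest mouse for that gene, and without it the log2 fold change was -0.065. Antisense genes cover 13.5% of the exon bases of Tnfsf13 and 14.9% of those of Tnfsf9.

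Tnf itself was rarely sampled. Tnf (chr17:35199381-35202007) had 1, 4, 1 and 2 counts in LLC1 mice and 6, 10, 8 and 8 counts in PBS mice. Every LLC1 mouse lay below every PBS mouse, also after normalization. The 8 counts in LLC1 against 32 in PBS mice gave a ratio of normalized sums of 0.219, with an exact 95% interval from 0.0870 to 0.484 that covers counting error only. The exact permutation test over mice gave a 2-sided p of 0.0286, the smallest that 70 arrangements allow. Tnf was under the filter and so carries no call. When all genes with a count were fitted it was called lower (log2 fold change -2.11, SE 0.55, edgeR FDR 0.0218), while DESeq2 gave a p of 0.00308 and no adjusted value.

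The remaining 10 ligands were under the filter as well. Tnfsf9, a ligand that costimulates T cells, had 27 counts over the LLC1 mice and 32 over the PBS mice. Ltb, a subunit of membrane lymphotoxin, had 17 and 18 counts, and Lta, the soluble lymphotoxin, had 4 and 2. Tnfsf18 had 1 and 8 counts, of which 6 came from PBS 2-1. The death ligand gene Fasl had 2 and 4 counts, and Tnfsf14, Tnfsf4, Tnfsf11 (the osteoclast ligand RANKL), Tnfsf15 and Tnfsf8 had at most 3 counts over all mice. For Tnfsf9, Ltb and Lta the interval of the ratio for counting error included 1 and lay above the Tnf ratio of 0.219. A fall as large as that of Tnf was therefore not seen for these genes. For Fasl, Tnfsf14, Tnfsf4 and Tnfsf15 the interval held both 0.219 and 1, so these counts could not decide. Tnfsf11 and Tnfsf8 had no counts in PBS mice and gave no ratio. The interval of the Tnfsf18 ratio, from 0.00246 to 0.815 for counting error, lay below 1. Its exact permutation p over mice was 0.429. Some of these ligands are products of activated lymphocytes. The T cell markers summed to between 1.12 and 1.72 CPM in LLC1 and between 1.37 and 2.48 CPM in PBS mice, and their part in these counts was not tested.

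All 6 receptors with a death domain were tested and 0 were called by edgeR, DESeq2 or limma-voom, while 3 of them (Fas, Tnfrsf21 and Tnfrsf10b) had an unadjusted edgeR p under 0.05. Over all genes tested by edgeR, 8.73% were called and 25.5% had an unadjusted p under 0.05. Tnfrsf1a, the main receptor for soluble TNF, was at 39.9, 43.1, 34.8 and 41.3 CPM in LLC1 and 35.9, 42.3, 39.7 and 44.2 CPM in PBS mice. The values intermingled, with a log2 fold change of -0.03 and a 95% interval from -0.20 to 0.14 (edgeR FDR 0.861). Fas, the receptor for the death ligand Fasl, was at 21.1, 19.4, 19.1 and 20.9 CPM in LLC1 and 15.9, 16.2, 13.9 and 18.9 CPM in PBS mice. Every LLC1 mouse lay above every PBS mouse, although LLC1 1-5 and PBS 2-5 were close. The log2 fold change of Fas was 0.31 (SE 0.10, FDR 0.0670). Its FDR was 0.0216 without PBS 2-5, a fit that called 10.1% of all genes tested. In the other 7 fits with 1 mouse left out, its FDR ran from 0.0752 to 0.165.

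The bases before the Fas start are shown because Fas was the single member with all LLC1 values higher, and cover chr19:34290409-34290658 on the plus strand of GRCm38.p6 (RefSeq). The capitals mark a match to the GAS motif TTCNNNGAA, the letters bound by activated STAT factors.
Fas: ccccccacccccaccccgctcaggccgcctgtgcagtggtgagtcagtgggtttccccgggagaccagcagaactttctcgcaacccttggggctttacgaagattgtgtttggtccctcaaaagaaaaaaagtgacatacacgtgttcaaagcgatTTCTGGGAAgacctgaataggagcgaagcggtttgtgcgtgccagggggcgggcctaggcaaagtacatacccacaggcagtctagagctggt

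Tnfrsf21, a death domain receptor studied mainly in neurons and T cells, had a log2 fold change of -0.24 (SE 0.10, edgeR FDR 0.174). Tnfrsf10b, the mouse receptor that passes on the TRAIL death signal, was at 2.89 ± 0.458 CPM in LLC1 and 3.88 ± 0.929 CPM in PBS mice (SD, n = 4), with a log2 fold change of -0.43 (SE 0.19, FDR 0.183). Tnfrsf25, the receptor of the Tnfsf15 ligand, had a log2 fold change of -0.13 (FDR 0.661). Ngfr, the low-affinity neurotrophin receptor, was at 0.794, 0.724, 0.164 and 0.201 CPM in LLC1 and 0.772, 0.701, 0.471 and 0.767 CPM in PBS mice. LLC1 1-5 and 2-2 were low and the other LLC1 mice were like the PBS mice, and the interval of the log2 fold change ran from -1.50 to 0.34. The 4 Schwann cell markers summed to between 11.5 and 14.8 CPM in LLC1 and between 9.18 and 11.6 CPM in PBS mice, and their part in the Ngfr values was not tested.

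Among the 16 receptors without a death domain, 10 were tested and 2 were called (20%, against 8.73% of all genes tested), both lower (against 4.61%). Cd40 is the costimulatory receptor of B cells, dendritic cells and macrophages and is also carried by endothelium. Cd40 (chr2:165055627-165072948) was at 1.98, 1.91, 1.53 and 1.86 CPM in LLC1 mice and 4.29, 3.44, 4.06 and 3.42 CPM in PBS mice. The groups were well apart, with the highest LLC1 mouse below the lowest PBS mouse. The mean was 1.82 ± 0.200 CPM against 3.80 ± 0.441 CPM (SD, n = 4 each), and Cd40 fell by 1.06 on the log2 scale (SE 0.16, edgeR FDR 0.00376). The call held whichever single mouse was left out, with an FDR of at most 0.0166.

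Markers of the cells that carry CD40 were measured beside it. The 5 B cell markers summed to between 1.06 and 1.85 CPM in LLC1 and between 1.47 and 3.35 CPM in PBS mice, with Cd79b as the 1 gene tested (FDR 0.511). The 5 dendritic cell markers summed to between 3.97 and 5.28 CPM and between 5.06 and 8.09 CPM, with Itgax called lower (log2 fold change -1.08, edgeR FDR 0.0422). The 8 macrophage markers summed to between 196 and 249 CPM and between 203 and 303 CPM, with Mrc1 called lower. The 7 endothelial markers summed to between 848 and 950 CPM and between 908 and 1198 CPM, with Kdr and Emcn called lower. None of these markers was at 0 in all mice, the 4 sums overlapped between groups, and the part of these cells in the Cd40 result was not tested. The ligand gene Cd40lg, which lies outside the rule, had 0 counts in all mice, and the largest level that 3 counts would allow in a library was 0.257 CPM.

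Eda2r encodes the receptor for the A2 form of ectodysplasin and is a known p53 target. Eda2r (chrX:97333840-97377216) was at 2.78, 3.16, 3.50 and 3.92 CPM in LLC1 mice and 5.15, 8.13, 5.36 and 6.97 CPM in PBS mice. The groups did not overlap, and the PBS mice were the more spread. The mean was 3.34 ± 0.488 CPM against 6.40 ± 1.41 CPM (SD, n = 4 each), and Eda2r fell by 0.93 on the log2 scale (SE 0.18, edgeR FDR 0.00982). Leaving out any single mouse kept its FDR at or under 0.0368. Its ligand gene Eda, outside the rule, had a log2 fold change of -0.36 (SE 0.17, FDR 0.208).

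The bases upstream of Eda2r are shown because it was called, and cover chrX:97377217-97377459, read 5′ to 3′ along the minus strand of GRCm38.p6 (RefSeq). The capitals mark a match to the TATA box letters TATAAA.
Eda2r: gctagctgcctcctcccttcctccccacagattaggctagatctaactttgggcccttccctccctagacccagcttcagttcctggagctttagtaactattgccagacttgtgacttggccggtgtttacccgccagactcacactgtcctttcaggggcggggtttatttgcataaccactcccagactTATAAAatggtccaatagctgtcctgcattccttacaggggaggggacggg

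Tnfrsf1b, the second TNF receptor, responds chiefly to membrane-bound TNF and is found on endothelium and leukocytes. Tnfrsf1b was at 14.7, 12.7, 11.8 and 13.5 CPM in LLC1 mice and 16.4, 17.0, 14.8 and 15.9 CPM in PBS mice. The groups touched without overlapping, since LLC1 1-2 and PBS 2-1 lay side by side. Its log2 fold change was -0.29 (SE 0.09, edgeR FDR 0.0746), so it did not pass the threshold. The bases before its start are shown for comparison with Fas, and cover chr4:145246871-145247120, read 5′ to 3′ along the minus strand of GRCm38.p6 (RefSeq). The capitals mark a GAS match first and, at the end, a match to the interferon response letters GAAANNGAAA on the opposite strand.
Tnfrsf1b: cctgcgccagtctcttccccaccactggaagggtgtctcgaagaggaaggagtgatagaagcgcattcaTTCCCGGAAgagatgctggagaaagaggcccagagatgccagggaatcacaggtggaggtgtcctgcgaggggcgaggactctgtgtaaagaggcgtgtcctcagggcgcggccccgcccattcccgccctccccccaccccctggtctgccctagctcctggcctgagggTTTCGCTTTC

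Motifs were searched on both strands of the 250 bases before the RefSeq start, for which 34 of the 42 members had an entry. The GAS letters TTCNNNGAA were found for 8 of these members (23.5%), namely Fas, Lta, Ltb, Tnfrsf18, Tnfrsf1a, Tnfrsf1b, Tnfrsf25 and Tnfrsf9, and for 8.13% of all 27025 genes with an entry. The interferon response letters were found for 4 members, against 3.46% of all genes. A kappaB site was found for Ltb, Tnfrsf25, Tnfrsf8 and Tnfrsf9, against 8.23% of all genes. TATAAA was found for 7 members, against 14.3% of all genes. Within the full 250 bases, Tnfsf10 held none of these letters and Eda2r held TATAAA alone. A match describes letters only.

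Tnfrsf12a, the TWEAK receptor, was the most abundant member, and its coefficient of variation among the PBS mice, 41.1%, was the highest of the 23 tested members. Tnfrsf12a was at 56.1, 39.7, 45.2 and 45.7 CPM in LLC1 and 72.1, 57.8, 34.3 and 29.9 CPM in PBS mice. PBS mice 1-1 and 1-3 lay above all LLC1 mice, and PBS mice 2-1 and 2-5 lay below all of them. The mean was 46.7 ± 6.84 CPM against 48.5 ± 19.9 CPM (SD, n = 4 each), with a log2 fold change of -0.04 and a 95% interval from -0.50 to 0.41 (edgeR FDR 0.928). The meaning of the first number of the code is not given in the labels. With that number as a covariate the log2 fold change was -0.11 (FDR 0.713).

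**Figure D3:**
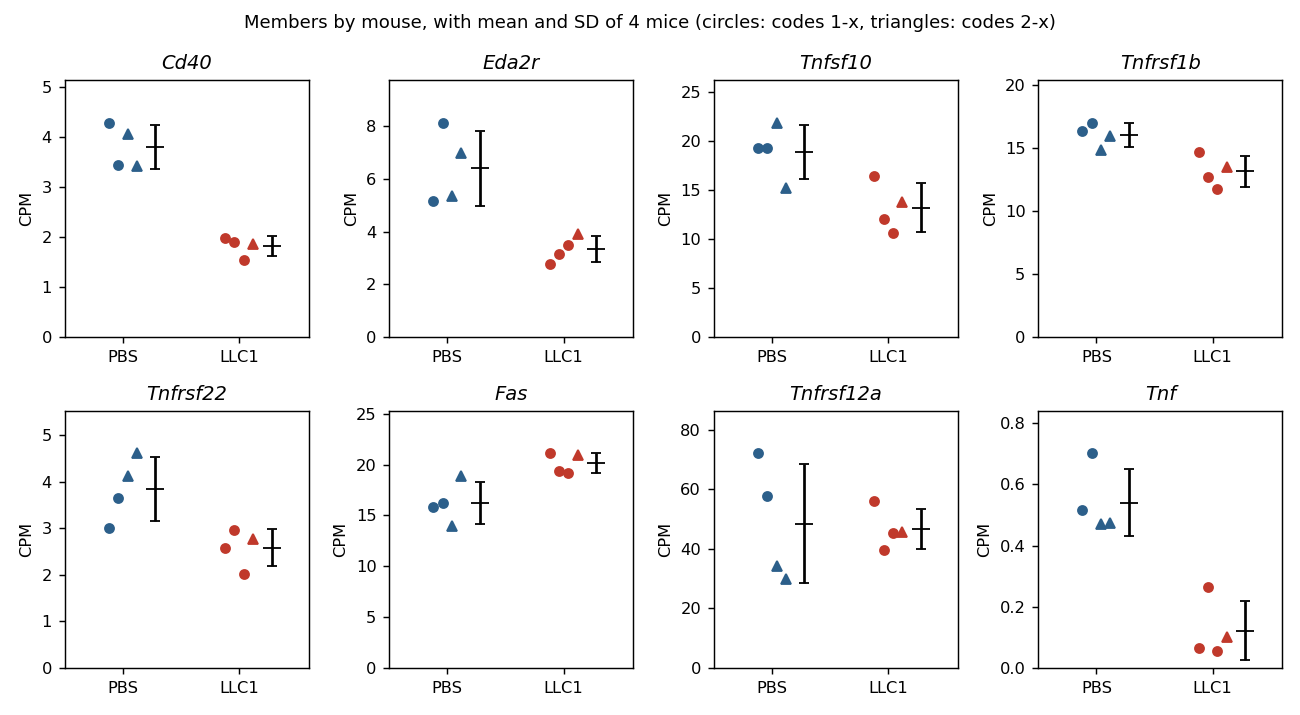
CPM by mouse for 8 members, PBS in blue and LLC1 in red, with circles for replicate codes that begin with 1 and triangles for those that begin with 2; bars give the mean and SD of 4 mice. Cd40, Eda2r, Tnfrsf1b, Tnfrsf22 and Tnf lie lower and Fas lies higher in every LLC1 mouse than in any PBS mouse, while Tnfsf10 overlaps and the PBS circles of Tnfrsf12a lie above its PBS triangles.

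Ltbr, the lymphotoxin beta receptor, was at 31.6, 29.3, 29.3 and 29.1 CPM in LLC1 and 26.5, 28.7, 29.7 and 34.2 CPM in PBS mice. The LLC1 mice fell within the PBS range, and the 95% interval of the log2 fold change ran from -0.16 to 0.16 (edgeR FDR 0.995). Tnfrsf14, the receptor of the Tnfsf14 ligand, had a log2 fold change of 0.00 with an interval from -0.29 to 0.29 and values that overlapped. Tnfrsf19, an orphan receptor of progenitor cells, was at 5.09, 5.399, 5.31 and 7.30 CPM in LLC1 and 5.41, 4.84, 7.71 and 4.84 CPM in PBS mice, where LLC1 2-2 and PBS 2-1 were high, and had a log2 fold change of 0.02 (FDR 0.962). Tnfrsf11a, the osteoclast receptor RANK, was at 2.60 ± 0.181 CPM in LLC1 and 3.09 ± 0.542 CPM in PBS mice (SD, n = 4), with a log2 fold change of -0.26 (FDR 0.357).

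Tnfrsf18, the T cell costimulatory receptor GITR, was at a mean level of 2.68 CPM per kilobase over all mice and had a log2 fold change of 0.18 (SE 0.15, edgeR FDR 0.499). An antisense gene, Gm16008, covers 27.2% of its exon bases, and since the library kit does not mark strand the reads of these genes cannot be told apart. Cd27, a costimulatory receptor of lymphocytes, had a log2 fold change of -0.21 with an interval from -0.83 to 0.41. Under the filter, Tnfrsf4 (OX40) had 46 counts over the LLC1 and 34 over the PBS mice, Tnfrsf9 had 8 and 8, and Tnfrsf8 had 3 and 2. The receptors of BAFF and APRIL on B cells were under the filter too, with 34 and 43 counts for Tnfrsf13b, 5 and 4 for Tnfrsf13c, and 2 and 8 for Tnfrsf17, of which 6 came from PBS 2-5.

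Of the 4 decoy receptors, Tnfrsf22 and Tnfrsf23 were tested, both of which bind TRAIL in the mouse. Tnfrsf22 was at 2.58, 2.96, 2.02 and 2.77 CPM in LLC1 and 3.00, 3.65, 4.12 and 4.604 CPM in PBS mice. The groups did not overlap, with LLC1 1-3 just under PBS 1-1. Its log2 fold change was -0.59 (SE 0.18, edgeR FDR 0.0614). Its FDR was 0.0223 without PBS 1-1, a fit that called 11.9% of all genes tested. In the other 7 fits with 1 mouse left out, its FDR ran from 0.0928 to 0.161. Tnfrsf23 was at 2.65, 2.11, 3.23 and 2.62 CPM in LLC1 and 2.83, 3.01, 2.77 and 3.601 CPM in PBS mice, which overlapped (log2 fold change -0.20, FDR 0.499). Tnfrsf22 and Tnfrsf23 are closely related genes on chromosome 7, and reads that could come from either were not examined. Tnfrsf26 had 32 counts over the LLC1 and 37 over the PBS mice, and Tnfrsf11b, the soluble RANKL decoy osteoprotegerin, had 7 and 7.

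The TRAIL genes can be set side by side. The ligand gene Tnfsf10 fell by 0.52, and the log2 fold changes were -0.43 for the death receptor Tnfrsf10b, -0.59 for the decoy Tnfrsf22 and -0.20 for the decoy Tnfrsf23. Tnfsf10 passed the threshold, and the other three did not.

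The 6 superfamily genes that carry other names (Cd40lg, Cd70, Eda, Edar, Relt and the adaptor Edaradd) gave 3 tested genes, none of which had an edgeR FDR under 0.208.

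Beyond ligands and receptors, 68 genes of TNF receptor signalling were examined as a list, 66 of which were tested. The list was chosen with earlier results of these data known, so the shares called, here and in its parts below, only describe the list. Of these, 18 were called (27.3%), against 8.73% of all genes tested, with 16 lower (24.2%, against 4.61%) and 2 higher. LLC1 and PBS values were fully separate for 26 of these 66 genes (39.4%, against 17.2% of all genes), and the median log2 fold change was -0.12. The number of calls changed with the mouse left out: 6 genes were called without LLC1 1-2, 8 without LLC1 1-3, 7 without LLC1 1-5, 9 without LLC1 2-2 and 6 without PBS 1-3. The share of all genes tested that was called fell as well in these 5 fits, to 4.59%, 3.88%, 4.36%, 5.11% and 3.32% in the same order. The genes Ccl2, Sele, Gadd45b, Nfkbib, Tnfaip3 and Tnfaip8l1 were called in each of these 5 fits.

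Among 30 adaptors, caspases and ubiquitin enzymes that act next to the receptors, 8 were called (26.7%, against 8.73% of all genes tested), and all were lower (against 4.61%). Tnfaip3 encodes A20, an ubiquitin-editing enzyme that restrains NF-kappaB, and it was at 3.97, 3.29, 4.16 and 4.13 CPM in LLC1 and 7.21, 7.08, 6.83 and 5.84 CPM in PBS mice. The groups were apart, and Tnfaip3 fell by 0.78 on the log2 scale (SE 0.13, edgeR FDR 0.00513). Mlkl, the effector of necroptosis, fell by 0.66 (FDR 0.0427). The caspase inhibitor gene Xiap fell by 0.27 (FDR 0.0305) and Birc3, which encodes a ubiquitin ligase of the TNF receptor complex, fell by 0.44 (FDR 0.0465). The adaptor gene Traf3, whose product restrains noncanonical NF-kappaB signalling downstream of CD40, fell by 0.34 (FDR 0.0254), and Traf4 fell by 0.40 (FDR 0.0495). Over 8 other settings with all mice, the call was lost in 5 for Traf4, 3 for Birc3, 2 for Mlkl and 1 for Xiap. Over the 8 fits with 1 mouse left out, it was lost in 7 for Traf4 and for Mlkl, 6 for Birc3, 5 for Traf3 and 4 for Xiap.

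Among 23 kinases and NF-kappaB factors, Nfkbib alone was called (4.35%, against 8.73% of all genes tested). It encodes an inhibitor that holds NF-kappaB in the cytoplasm, and it was at 18.5, 20.2, 20.1 and 19.5 CPM in LLC1 and 14.7, 16.3, 14.1 and 13.6 CPM in PBS mice. All LLC1 mice were higher, and Nfkbib rose by 0.42 on the log2 scale (SE 0.08, edgeR FDR 0.0121). Of its exon bases, 14.5% lie under the antisense gene Ccer2 and 1.94% under Sirt2. The median over the 23 genes was -0.03.

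Among 13 tested genes that are NF-kappaB targets or carry a Tnfaip name, 9 were called (69.2%, against 8.73% of all genes tested), 8 of them lower (61.5%, against 4.61%) and 1 higher, and 10 log2 fold changes were below 0. Ccl2, the monocyte chemokine, was at 0.728, 0.593, 1.15 and 1.06 CPM in LLC1 and 5.58, 6.17, 1.65 and 2.36 CPM in PBS mice. The groups did not overlap, and PBS mice 1-1 and 1-3 stood well above PBS mice 2-1 and 2-5. Ccl2 fell by 2.09 on the log2 scale (SE 0.42, edgeR FDR 0.0129). Cxcl1, a neutrophil chemokine, was at 0.992, 0.658, 0.985 and 0.704 CPM in LLC1 and 5.32, 2.94, 1.29 and 2.01 CPM in PBS mice, again with PBS 1-1 and 1-3 the highest, and fell by 1.73 (FDR 0.0219). The endothelial adhesion gene Sele was at 0.595, 0.527, 0.383 and 0.352 CPM in LLC1 and 1.72, 1.61, 1.29 and 1.42 CPM in PBS mice. Its groups were apart, and Sele fell by 1.70 (SE 0.26, FDR 0.00358).

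The adhesion genes Vcam1 and Icam1 fell by 0.61 (edgeR FDR 0.0199) and 0.66 (FDR 0.0387), with an antisense gene over 11.7% of the exon bases of Icam1. Tnfaip8l1, which is named for its likeness to Tnfaip8 and is no established target of TNF or NF-kappaB, fell by 1.02 (FDR 0.0104), Tnfaip1 by 0.37 (FDR 0.0204) and Tnfaip2 by 0.34 (FDR 0.0247). Over the 8 fits with 1 mouse left out, the call was lost in 5 for Cxcl1, Icam1 and Tnfaip2, in 4 for Vcam1 and in 3 for Tnfaip1. Gadd45b, a stress-induced gene, was at 9.92, 6.19, 9.19 and 7.35 CPM in LLC1 and 4.38, 3.37, 4.002 and 4.19 CPM in PBS mice, and all LLC1 mice were higher. Gadd45b rose by 1.03 on the log2 scale (SE 0.16, FDR 0.00432). Of the 7 endothelial markers, Kdr fell by 0.61 (FDR 0.00132) and Emcn by 0.31 (FDR 0.0205) in the same libraries, while the log2 fold changes of the others ran from -0.39 for Cdh5 to 0.20 for Vwf without a call, the sums overlapped between groups, and the part of endothelial cells in the Sele, Vcam1 and Icam1 results was not tested.

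**Figure D4:**
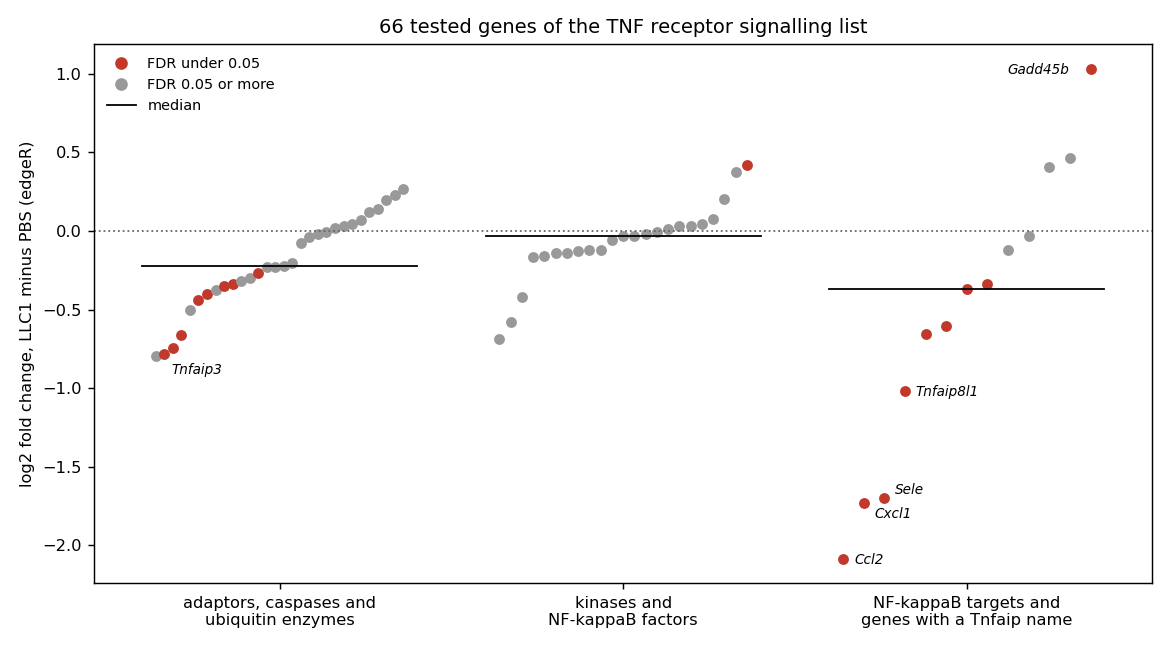
Log2 fold change (LLC1 minus PBS, edgeR) on the vertical axis for the 66 tested genes of the TNF receptor signalling list in 3 groups, each gene a point and the median a black line. Red points have an FDR under 0.05, and the lowest are Ccl2 at -2.09, Cxcl1 at -1.73 and Sele at -1.70, while Gadd45b at 1.03 is the highest.

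Of the 16 signalling genes called lower, 12 had a RefSeq promoter entry, and 5 of these (41.7%) held a kappaB site, namely Cxcl1, Tnfaip2, Tnfaip3, Tnfaip8l1 and Traf3. The share was 29.6% over the 54 tested signalling genes with an entry and 8.23% over all genes. Part of the list was chosen as NF-kappaB targets, so the share is a description of the list. Windows of 60 bases on the plus strand are shown for 3 of them, with the kappaB match in capitals, from chr5:90891150-90891209 for Cxcl1, chr12:111166310-111166369 for Traf3 and chr17:56162318-56162377 for Tnfaip8l1. The capitals of Cxcl1 join overlapping matches on both strands.
Cxcl1: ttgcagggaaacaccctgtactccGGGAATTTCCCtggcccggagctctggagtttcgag
Traf3: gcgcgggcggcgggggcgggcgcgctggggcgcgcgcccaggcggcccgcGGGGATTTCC
Tnfaip8l1: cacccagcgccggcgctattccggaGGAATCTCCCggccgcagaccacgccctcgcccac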

How the data were processed

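Ventricular RNA of 4 LLC1 and 4 PBS mice was purified with miRNeasy kits, made into TruSeq v2 libraries, which do not mark strand, and sequenced as 150-base paired ends. The submitters' processing notes name CASAVA, STAR, featureCounts and mm10. The deposited values are whole-number counts per gene made by the authors from mapped reads, without normalization, and the strand setting is not given in the sources used here. Groups came from the stated treatment. The study's methods name no count test.

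Genes were kept by filterByExpr in edgeR 4.0.16 (R 4.3.3), scaled by TMM, and tested by glmQLFit and glmQLFTest over all 8 mice without covariates. The exact permutation test used log2(CPM + 0.5). The fit was tested on simulated data. Other settings used DESeq2 1.42.0, limma 3.58.1, other scalings and filters, a covariate and each mouse left out. Python 3.11.15 with pandas 2.3.3, scipy 1.17.1 and matplotlib 3.10.9 was used for the rest. Exon overlaps came from GENCODE M21 and promoters from RefSeq GRCm38.p6. No base of a deposited gene body is printed.

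The members, the signalling list and the marker lists were chosen with earlier results of these data known. Every member is named. Values in every mouse are given for members called or without overlap, the most abundant member of each role, and Tnf and its receptors, and for others where a library stood apart. Signalling genes are named where called, except some whose own values are not reported here and which the list totals still count.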

Additional observations from a re-analysis of the deposited data

Results flagged for a closer look

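In 2 of the 82 groups of 4 mice examined (each tested member and called signalling gene in each group), 1 mouse stood apart, by a gap to its nearest neighbour that exceeded Dixon's 95% limit for 4 samples as a share of the group's range. Chance gives this in about 1 in 20 groups. For Ltbr, LLC1 1-2 was at 31.6 CPM and the other LLC1 mice were between 29.1 and 29.3 CPM, a gap of 0.905 of the range. For Tnfrsf19, LLC1 2-2 was at 7.30 CPM and the other LLC1 mice were between 5.09 and 5.399 CPM, a gap of 0.861 of the range.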

How the results depend on the processing

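The 8 other settings with all mice were upper-quartile normalization, library totals only, all genes with a count, at least 10 counts in every mouse, DESeq2, limma-voom, robust empirical Bayes, and a covariate for how the replicate code begins (1 or 2). Cd40, Eda2r and Tnfsf10 were called in each of them, and the number of members called was 3 or, with Tnf among all genes with a count, 4. It was 2 to 4 with 1 mouse left out. The signalling list gave 15 to 20 calls with all mice and 6 to 21 with 1 mouse left out. With library totals only, 77.9% of the calls over all genes were lower, against 52.8% with TMM, and the median of all genes was -0.065 in place of -0.010.

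Over these settings, 172 of 181 log2 fold changes of tested members kept direction and side of the threshold, and 9 changed sign, all close to 0. Tnfrsf14 was at -0.055 with library totals only, -0.0034 with at least 10 counts in every mouse and -0.0068 with limma-voom. Ltbr was at 0.014 with all genes with a count, 0.0026 with DESeq2 and 0.026 with the covariate. Tnfsf12 was at 0.012 with the covariate, Tnfrsf19 at -0.035 with library totals only and Tnfrsf12a at 0.052 with limma-voom. The cause was not tested. With 1 mouse left out, log2 fold changes ran from -0.069 to 0.0895 for Tnfrsf14, from -0.051 to 0.069 for Ltbr, from -0.081 to 0.031 for Tnfrsf1a, from -0.12 to 0.013 for Tnfsf12, from -0.12 to 0.21 for Tnfrsf19 and from -0.22 to 0.21 for Tnfrsf12a. Of the 18 called signalling genes, none changed sign, and in 64 of 144 fits with 1 mouse fewer the call was lost. Ranked by CPM without gene length, Tnfsf12 was 7th among the members tested, behind the ligand gene Tnfsf10 at 6th, while per length Tnfsf12 was 5th and Tnfsf10 11th.

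No paired analysis was possible because the groups compared share only 1 replicate code, 1-3. Depth limits the 19 members under the filter, where 3 counts correspond to 0.151 to 0.257 CPM.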
